A study of Mus musculus with 18 samples.

Results

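The transcripts of 35 autophagy, mitophagy and lysosome genes were followed in myofibers from the quadriceps of mice given prednisone, a synthetic glucocorticoid, on a weekly or a daily schedule. The genes were taken by symbol from a list of pathway members. The list uses no threshold on these data, but it was drawn up with earlier results of them known. All 35 were found among the 43430 gene identifiers of the count table, and all 35 were among the 13596 genes with enough counts to be tested.

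C57BL/6 mice (C57BL/6J in the study's methods) of both sexes, 10 weeks old at the start and with no engineered allele, received intraperitoneal injections for 4 weeks. The male and female vehicle groups received DMSO in PBS every day. The male and female daily groups received prednisone at 1 mg/kg every day. The male and female weekly groups received the same dose on 1 day a week and vehicle on the other 6 days, with the last prednisone injection 2 days before harvest. Each of these 6 groups had 3 libraries, 1 per animal, so 18 libraries were compared. Quadriceps muscle was digested with collagenase II, and the fraction retained on a 40-µm strainer was taken as myofibers. This fraction can hold other cells attached to the fibres, and in bulk RNA fewer cells of a type and less RNA per cell cannot be told apart.

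Autophagy carries cytoplasm to the lysosome inside a double membrane. The ULK kinase complex and the class III phosphatidylinositol kinase complex start that membrane, ubiquitin-like conjugation couples LC3 and GABARAP proteins of the ATG8 family to its lipids, and cargo receptors tie ubiquitinated proteins or mitochondria to those ATG8 proteins. Lysosomal membrane proteins and cathepsins complete the breakdown, and TFEB and TFE3 are transcription factors of many of these genes. In skeletal muscle, autophagy removes damaged mitochondria and proteins, and it is one of the routes of protein loss in fasting and glucocorticoid-induced atrophy.

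Library totals lay between 10506661 and 14686654 counts. The 35 genes took 0.363% to 0.513% of them and mitochondrially encoded genes 11.7% to 36.4%. The summed level of 10 myofiber markers was 103780 to 192310 CPM (counts relative to the library total, corrected with the TMM factors of edgeR) in every library. Markers of other cells were also counted. A list of 10 macrophage markers summed to 40.6 to 118 CPM, with the 3 female weekly libraries (93.0 to 118) above all others (at most 80.4). A list of 10 adipocyte markers summed to 735 to 9093 CPM. No marker of either list was at 0 in every library. Adipoq, 1 of the adipocyte markers, gave only 4.13 to 12.2 CPM in the vehicle libraries. The list also holds lipid genes such as Cidec, and the study reports raised lipid metabolism genes in female muscle. The adipocyte sum is thus not a measure of adipocytes alone. The female weekly replicate 1 library stood apart in slow-fibre markers (2325 CPM summed over 10 genes, against at most 581 in the other 17 libraries), and female weekly replicates 1 and 3 held the highest adipocyte sums, 7466 and 9093 CPM.

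In the vehicle libraries the genes spanned a wide range of transcript level, compared here as CPM per kilobase of exon. Exon length joins all annotated exons of a gene and can exceed that of the transcripts present, so the order depends on the annotation too. Map1lc3b, with 7517 exon bases, ranked 11 at 26.5 although its mean CPM (199) was above that of Map1lc3a (184). Ctsd, the aspartyl protease cathepsin D, was highest at 309 in the mean of the 6 libraries. It was followed by Pink1, the kinase that marks damaged mitochondria, at 285. Lamp1, an abundant glycoprotein of the lysosomal membrane, stood at 170, Sqstm1, which encodes the ubiquitin-binding receptor p62, at 160, and Map1lc3a, an LC3 gene, at 156. The lowest were Atg7, the activating enzyme of both conjugation systems, at 1.78 and Tfe3 at 1.60. The machinery that starts the membrane ran from rank 13 (Ulk1) to rank 33 (Atg14) of the 35, and the conjugation genes from rank 24 (Atg3) to rank 34 (Atg7). All 10 initiation and nucleation genes lay between 1.95 (Atg14) and 15.9 (Ulk1), and all 6 conjugation genes between 1.78 (Atg7) and 5.75 (Atg3). Of the 34 neighbouring pairs in this order, 28 had overlapping libraries and are not separated. The 6 that did not overlap were Pink1 above Lamp1, Map1lc3a above Bnip3, Gabarap above Ctsb, Ctsb above Gabarapl2, Nbr1 above Wipi1 and Atg16l1 above Atg14.

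**Figure D1:**
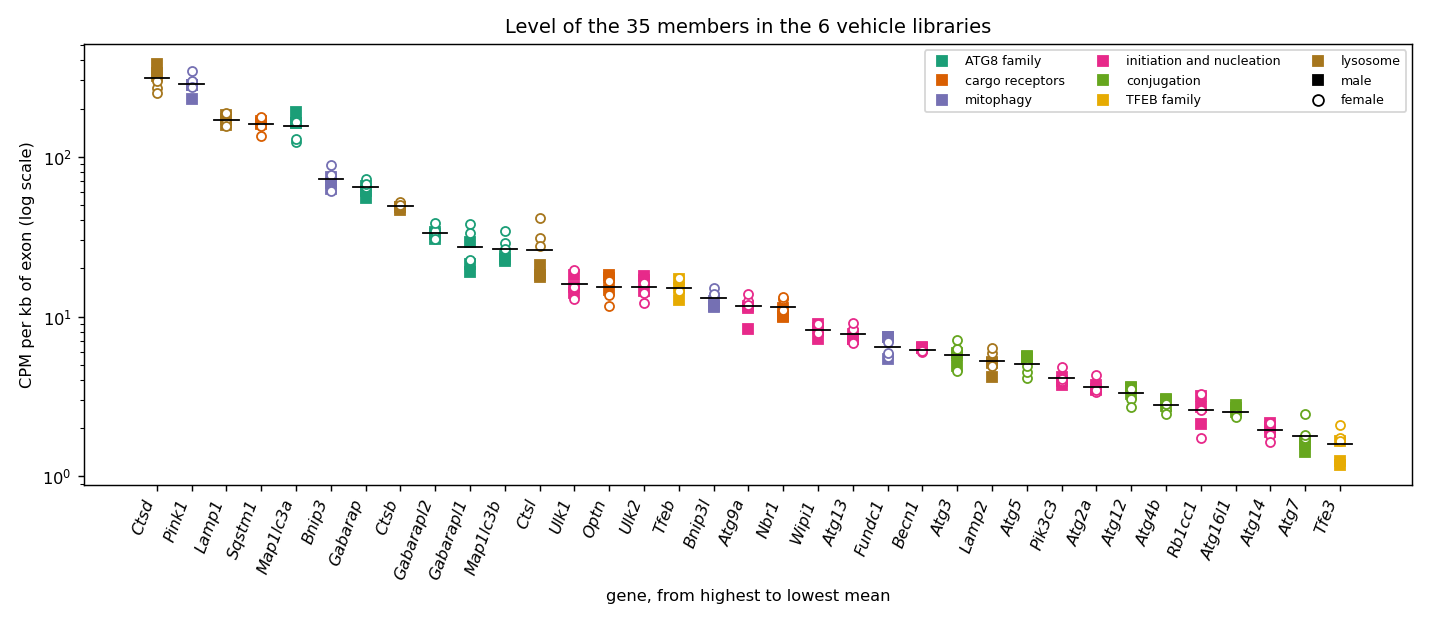
Level of the 35 genes in the 6 vehicle libraries, as CPM per kilobase of exon on a log axis. Filled squares are the 3 male and open circles the 3 female libraries, colours give the role, and black bars are the means, which run from 309 for Ctsd to 1.60 for Tfe3.

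The first comparison asked what daily prednisone did. In the mean of both sexes, 5 of the 35 genes passed an adjusted p of 0.05 (edgeR quasi-likelihood test, Benjamini-Hochberg over all 13596 genes), 3 higher and 2 lower. The background was 7.48% of all tested genes called higher and 7.47% called lower, so 3 and 2 of the 35 are near it. Rb1cc1, Atg9a and Lamp2 rose, and Map1lc3a and Gabarapl2 fell. The 35 log2 fold changes had a median of 0.02, the same as all tested genes, with 19 above and 16 below 0. Within males 2 of the 35 passed in edgeR (background 6.46%), and within females none did in edgeR (background 0.382%) or DESeq2. At an unadjusted p under 0.05 there were 10 in males (background 22.8%) and 7 in females (background 17.3%).

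Among the ATG8 family, Map1lc3a lies on the plus strand of chromosome 2 (155276297 to 155278073, mm10; ENSMUSG00000027602). It gave 225, 193 and 191 CPM in the male vehicle libraries and 146, 106 and 138 CPM in the male daily libraries. In females it gave 147, 194 and 153 CPM under vehicle and 157, 97.3 and 121 CPM under daily prednisone. The 3 male daily libraries were all below the male vehicle libraries, while 1 female daily library was above 2 female vehicle libraries. The log2 fold change was -0.64 ± 0.19 (SE) in males (adjusted p = 0.0489, edgeR), -0.40 ± 0.19 in females (adjusted p = 0.280) and -0.52 ± 0.13 in the mean of both sexes (adjusted p = 0.0145).

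Gabarapl2, another ATG8 gene (chromosome 8, plus strand, 111940703 to 111953612; ENSMUSG00000031950), gave 76.4, 78.1 and 70.6 CPM in male vehicle and 61.1, 57.0 and 57.4 CPM in male daily libraries. The female values were 79.9, 89.5 and 70.6 CPM under vehicle and 71.9, 61.5 and 66.9 CPM under daily prednisone. Again the male groups did not overlap and the female groups did. It fell by 0.31 ± 0.08 on the log2 scale in the mean of both sexes (adjusted p = 0.0183, edgeR), and without female vehicle replicate 2 the adjusted p was 0.0507. The call was also lost with no filter on low counts (adjusted p = 0.0817, edgeR), with the macrophage score (0.0514) or the adipocyte score (0.167) as a covariate and with the length and GC trend removed (0.0876), at log2 fold changes of -0.35 to -0.28. The 3 other family members did not pass, with log2 fold changes of -0.20 ± 0.09 for Gabarap, -0.15 ± 0.09 for Map1lc3b and -0.03 ± 0.14 for Gabarapl1. All 5 were thus below 0, although Gabarapl1 was above 0 with limma-voom, with no filter on low counts and after removal of the length and GC trend.

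Of the 10 initiation and nucleation genes, 9 were above 0 under daily prednisone and 2 passed. Rb1cc1 encodes FIP200, the scaffold of the ULK complex (chromosome 1, plus strand, 6206197 to 6276648; ENSMUSG00000025907). Male libraries held 40.2, 46.9 and 31.2 CPM under vehicle against 56.8, 53.0 and 69.9 CPM under daily prednisone. In females the vehicle libraries held 48.1, 25.6 and 38.1 CPM and the daily libraries 63.8, 55.2 and 58.0 CPM. The daily libraries were above the vehicle libraries in both sexes without overlap. Rb1cc1 rose by 0.63 ± 0.14 on the log2 scale in the mean of both sexes (adjusted p = 0.00802, edgeR). The change was 0.60 ± 0.20 in males and 0.66 ± 0.20 in females, neither of which passed alone (adjusted p = 0.0834 and 0.116). An antisense gene, 4732440D04Rik, shares 558 bases of its exons, and the strand setting of the counting is not given in the sources used here.

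Atg9a encodes the membrane protein of the vesicles that seed the autophagosome (chromosome 1, minus strand, 75180860 to 75192196; ENSMUSG00000033124). It gave 65.1, 67.5 and 48.1 CPM in male vehicle and 79.7, 81.1 and 86.6 CPM in male daily libraries. Female libraries gave 72.1, 79.8 and 67.8 CPM under vehicle and 122, 90.7 and 90.3 CPM under daily prednisone. Here too neither sex had an overlap, and the highest value was that of female daily replicate 1. The rise was 0.46 ± 0.10 on the log2 scale in the mean of both sexes (adjusted p = 0.00827, edgeR), with 0.45 ± 0.15 in males and 0.46 ± 0.15 in females. A non-coding gene on the same strand, Gm29253, shares 1832 of its 5762 exon bases, so the 2 cannot be fully separated in these counts.

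The other 8 genes of this role did not pass. Their log2 fold changes ran from -0.02 ± 0.07 for Becn1, the Beclin subunit of the class III kinase complex (3104 exon bases shared with Cntd1), to 0.26 ± 0.11 for Ulk2, a kinase of the ULK complex. Ulk1, its paralog, stood at 0.03 ± 0.13. Atg2a, a lipid transfer protein, was among the 3 smallest p-values of daily females (log2 fold change 0.30 ± 0.11, adjusted p = 0.171, edgeR). It gave 25.8, 33.1 and 26.9 CPM in female vehicle and 37.8, 34.6 and 33.1 CPM in female daily libraries, with the lowest daily library just under the highest vehicle library. In males Atg2a gave 26.7, 27.0 and 28.5 CPM under vehicle and 28.4, 27.1 and 27.0 CPM under daily prednisone, a log2 fold change of 0.01 ± 0.11. The sex difference of its response was 0.29 ± 0.16 and did not pass (adjusted p = 0.889, edgeR).

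Lamp2, the lysosomal membrane protein needed for fusion with autophagosomes (chromosome X, minus strand, 38401357 to 38456454; ENSMUSG00000016534), was the only one of the 5 lysosome genes to pass in edgeR, while DESeq2 also called Ctsd, as lower. Male vehicle libraries held 39.9, 49.3 and 48.8 CPM and male daily libraries 68.8, 69.7 and 67.4 CPM. The female values were 56.6, 46.7 and 61.0 CPM under vehicle and 57.9, 74.5 and 77.7 CPM under daily prednisone. The male groups were well apart and the female groups overlapped by 1 library. Lamp2 rose by 0.58 ± 0.16 on the log2 scale in males (adjusted p = 0.0434, edgeR), by 0.47 ± 0.11 in the mean of both sexes (adjusted p = 0.0126), and the change in females was 0.36 ± 0.16 (adjusted p = 0.268).

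The other lysosome genes showed no such rise. Ctsd was at -0.29 ± 0.11 (adjusted p = 0.0994, edgeR), Ctsl, the cysteine protease cathepsin L, at -0.22 ± 0.12, Lamp1 at -0.11 ± 0.11 and Ctsb, cathepsin B, at 0.02 ± 0.10, all on the log2 scale in the mean of both sexes. Ctsd and Ctsb share 808 and 774 exon bases with a neighbouring gene each. The 95% interval of Ctsb ran from -0.20 to 0.24, which holds it within 1.5-fold of vehicle.

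None of the 3 cargo receptors, 4 mitophagy genes, 6 conjugation genes or 2 TFEB family genes passed under daily prednisone in edgeR, and of these 15 genes only Nbr1 had an unadjusted p under 0.05 in the mean of both sexes. With DESeq2, Nbr1 also passed. Nbr1, a ubiquitin-binding receptor related to p62, stood at 0.23 ± 0.08 (adjusted p = 0.0540, edgeR). Optn, the receptor optineurin, stood at 0.21 ± 0.17 and Sqstm1 at -0.14 ± 0.09. Among the mitophagy genes the log2 fold changes were -0.21 ± 0.12 for Pink1, 0.15 ± 0.09 for Bnip3l, 0.04 ± 0.18 for Bnip3 and 0.00 ± 0.13 for Fundc1, the last 3 being receptors on the outer mitochondrial membrane. The conjugation genes lay between -0.19 (Atg5, part of the enzyme complex that couples LC3 to lipid) and 0.07 (Atg3, the conjugating enzyme of LC3). Tfeb was at -0.24 ± 0.13 and Tfe3 at 0.06 ± 0.17.

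**Figure D2:**
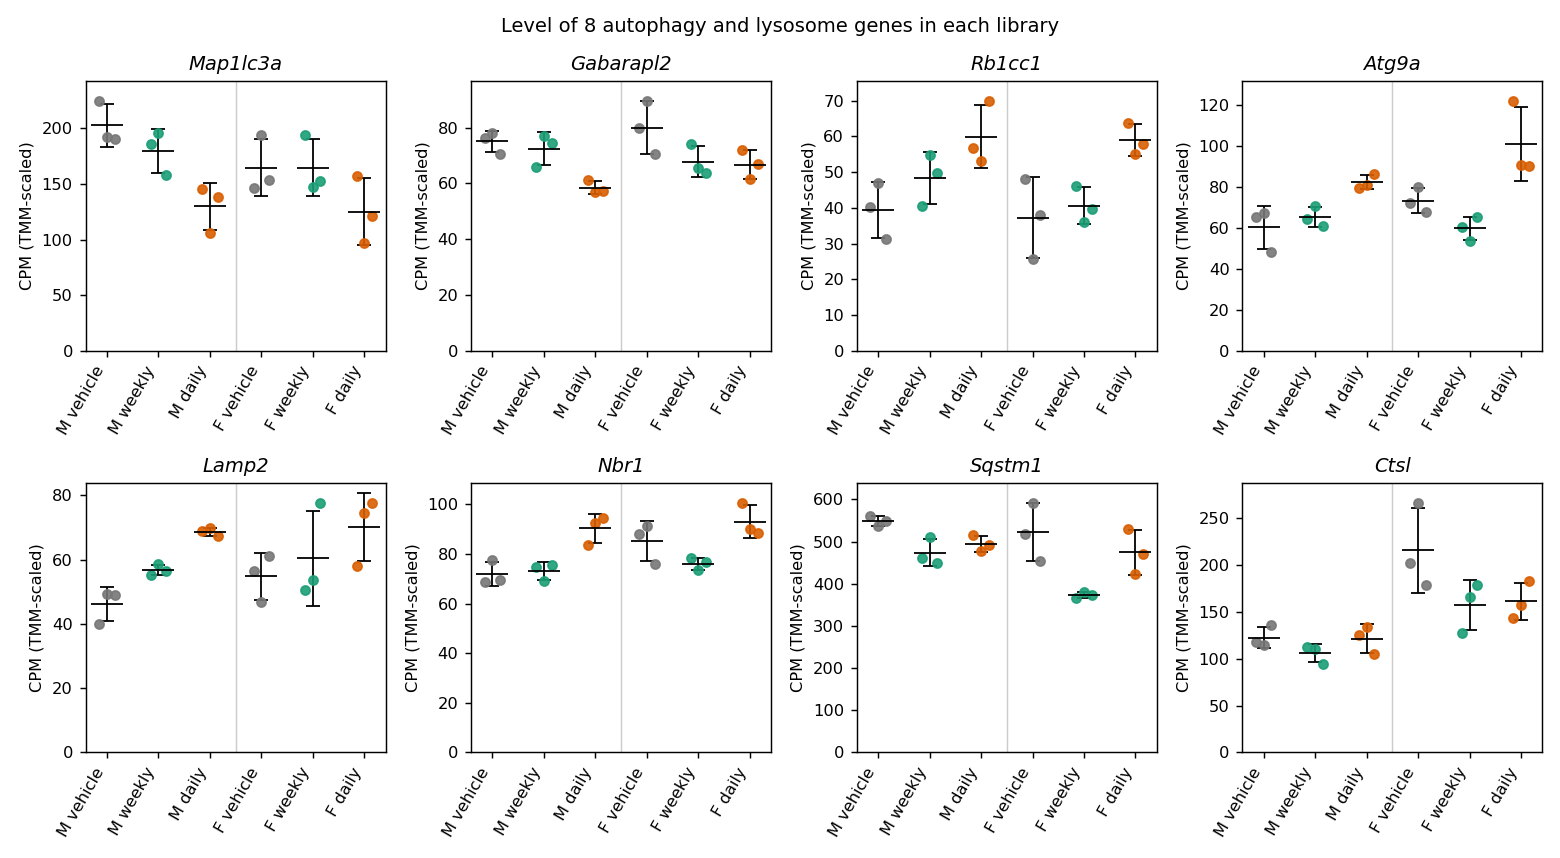
TMM-scaled CPM of 8 genes in each of the 18 libraries, with 3 points per group for male (M) and female (F) vehicle, weekly and daily mice. Bars are the mean and 1 SD. For Rb1cc1 and Atg9a the 3 daily libraries are above the 3 vehicle libraries in each sex, for Sqstm1 the female weekly libraries are the lowest, and for Ctsl female vehicle is the highest group.

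When each library was left out in turn, Map1lc3a, Rb1cc1, Atg9a and Lamp2 passed in 12 of 12 fits of the daily mean and Gabarapl2 in 11 of 12. The 2 calls within males did not: neither Map1lc3a (adjusted p 0.0753 to 0.189, edgeR) nor Lamp2 (0.0721 to 0.173) passed in any of the 6 fits without 1 library. Adipocyte markers moved with the treatment: all 10 were above 0 under daily prednisone in the mean of both sexes and 6 passed, with sums of 735 to 1256 CPM in male vehicle, 1230 to 2654 in male daily, 1594 to 1825 in female vehicle and 2848 to 6718 in female daily libraries. With the adipocyte score as a covariate none of the 35 passed. The log2 fold changes then were -0.56 for Map1lc3a, -0.35 for Gabarapl2, 0.53 for Rb1cc1, 0.43 for Atg9a and 0.21 for Lamp2, so Lamp2 moved most. All 5 blood markers were also below 0 and 4 of them passed. With the macrophage score as a covariate, 4 of the 5 still passed in the mean of both sexes (all but Gabarapl2) and none passed in males. The shares of all tested genes that passed with the adipocyte or the macrophage score are not given here. The counts with these scores thus do not show a loss particular to the 35 genes. The part of blood cells in these results was not tested.

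Exon length, over all annotated exons of a gene, moved with the daily change as well. Map1lc3a and Gabarapl2, which fell, have 1181 and 2325 exon bases, and Atg9a, Lamp2 and Rb1cc1, which rose, have 5762, 9552 and 14690. Over all tested genes, the median exon length was 7414 bases for the genes called higher and 1987 for those called lower. As a description, Spearman's rho between exon length and the daily log2 fold change was 0.415 over the 35 genes and 0.404 over 13529 genes, and all these values share the same libraries. After the trend of each library on length and GC content was removed, none of the 35 passed, and the log2 fold changes were -0.29 for Map1lc3a, -0.28 for Gabarapl2, 0.30 for Rb1cc1, 0.41 for Atg9a and 0.16 for Lamp2. Atg9a and Gabarapl2 thus kept most of their size (adjusted p = 0.0771 and 0.0876, edgeR), and the other 3 kept less. The share of all tested genes that passed in this fit is not given here, so a loss particular to the 35 genes is not shown.

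**Figure D3:**
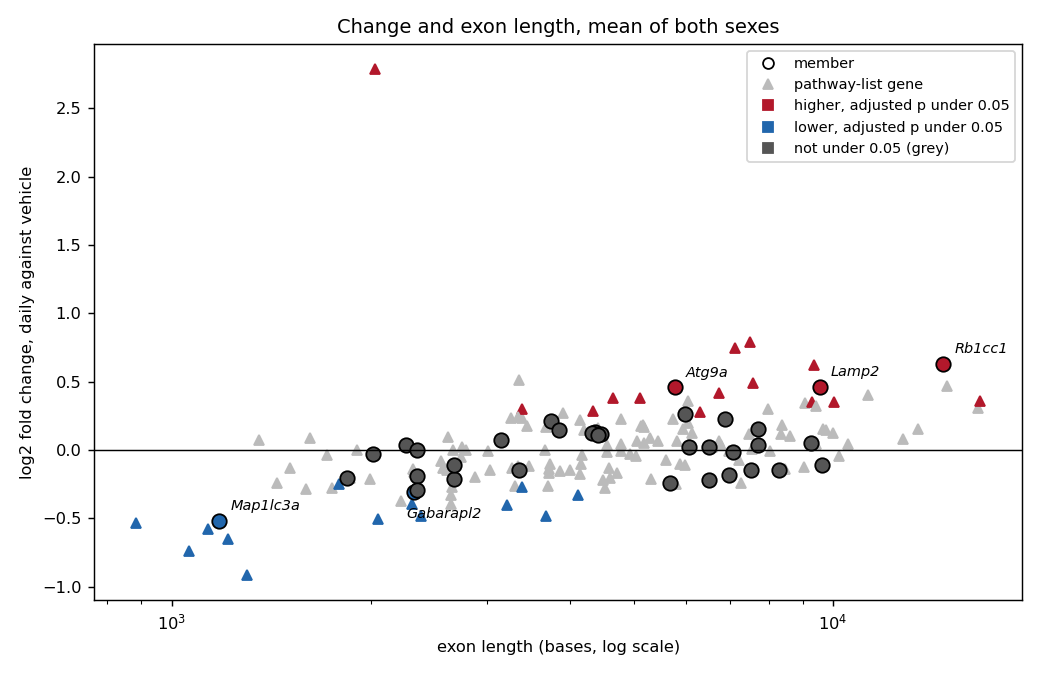
Log2 fold change under daily prednisone (mean of both sexes) against exon length on a log axis. Circles are the 35 genes, with the 5 that passed named, and triangles are genes of the 5 wider lists. Genes that passed as lower (blue) have 884 to 4110 exon bases and those that passed as higher (red) 2030 to 16704.

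Weekly prednisone was compared with the same vehicle libraries. No gene of the 35 passed in males, in females or in the mean of both sexes with edgeR, where 0% of all tested genes passed as well. At an unadjusted p under 0.05 there were 1 of 35 in males (background 5.71%), 2 in females (background 7.97%) and 2 in the mean of both sexes. In that mean the background over both directions was 870 genes higher and 622 lower (4.57%) of 13596. In the mean of both sexes 28 of the 35 were below 0, with a median log2 fold change of -0.08. Without 1 library this count was 21 to 28, lowest without female weekly replicate 2, the library with the highest mitochondrial share. Over all tested genes 53.5% were above 0 and the median was 0.02. The adipocyte markers moved with weekly prednisone too: all 10 were above 0 in the mean of both sexes, 8 of them at an unadjusted p under 0.05 and none past the adjusted threshold. Slow-fibre markers moved as well, with all 10 above 0, 9 at an unadjusted p under 0.05 and a median log2 fold change of 3.75. Their sums were 112 to 192 CPM in male vehicle and 235, 169 and 581 CPM in male weekly libraries. In females they were 116 to 199.8 CPM under vehicle and 2325, 239 and 198 CPM under weekly prednisone. In each sex 1 weekly library was far above the rest and 1 lay within the vehicle range. The median of 3.75 thus does not stand for a shift of all weekly libraries. Of the 10 macrophage markers 9 were above 0, 3 at an unadjusted p under 0.05. The part of slow fibres in the weekly values was not tested. Both unadjusted results in the mean were lower values, Sqstm1 and Ctsl.

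Sqstm1 (chromosome 11, minus strand, 50199366 to 50210827; ENSMUSG00000015837) gave 519, 592 and 455 CPM in female vehicle libraries and 365, 379 and 372 CPM in female weekly libraries. All 3 weekly libraries were below all 3 vehicle libraries. In males it gave 561, 537 and 548 CPM under vehicle and 461, 511 and 449 CPM under weekly prednisone, again without overlap. The log2 fold change was -0.49 ± 0.13 in females (adjusted p = 0.247, edgeR), -0.21 ± 0.13 in males (adjusted p = 0.849) and -0.35 ± 0.09 in the mean of both sexes (adjusted p = 0.195). DESeq2 called Sqstm1 lower in females and in the mean of both sexes. The female weekly libraries are those with the highest macrophage sums, and with the macrophage score as a covariate the female log2 fold change was -0.40. Its exons share 580 bases with those of Mrnip on the other strand. The sex difference of the weekly response was -0.28 ± 0.18 and did not pass (adjusted p = 1, edgeR).

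Ctsl gave 127, 165 and 179 CPM in female weekly against 202, 266 and 179 CPM in female vehicle libraries, so the highest weekly library and the lowest vehicle library were level. Its log2 fold change was -0.46 ± 0.17 in females (adjusted p = 0.457, edgeR). Atg14, a subunit that directs the class III kinase complex to autophagy, had the smallest p in weekly males at -0.44 ± 0.19 (adjusted p = 0.849, edgeR). It gave 9.39, 8.24 and 8.85 CPM in male vehicle and 6.25, 5.48 and 7.67 CPM in male weekly libraries, which did not overlap. Between 57 and 158 reads per library stand behind this gene, the fewest of any of the 35 at the low end. In females Atg14 gave 7.79, 7.06 and 9.31 CPM under vehicle and 8.38, 8.04 and 10.1 CPM under weekly prednisone.

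Lamp2 was also among the 3 smallest p-values of weekly males, at 0.30 ± 0.16 on the log2 scale (adjusted p = 0.849, edgeR), with 55.2, 58.5 and 56.5 CPM in male weekly libraries, all above male vehicle and below male daily libraries. Gabarapl2 was among those of weekly females at -0.24 ± 0.12 (adjusted p = 0.632, edgeR), with 74.1, 65.5 and 63.6 CPM, 1 of them above the lowest vehicle library.

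The intervals set the size of change that the weekly data leave possible. The 95% interval of the weekly change lay within 2-fold for all 35 genes in each sex and in the mean of both sexes, and within 1.5-fold for 34 of 35 in that mean. For Becn1 it ran from -0.17 to 0.12 on the log2 scale, and for Gabarap from -0.19 to 0.17. Libraries of the 2 groups did not overlap for 6 of 35 genes in weekly males (background 16.7%) and 2 of 35 in weekly females (background 8.07%), against 16 in daily males (background 33.4%) and 4 in daily females (background 23.1%).

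**Figure D4:**
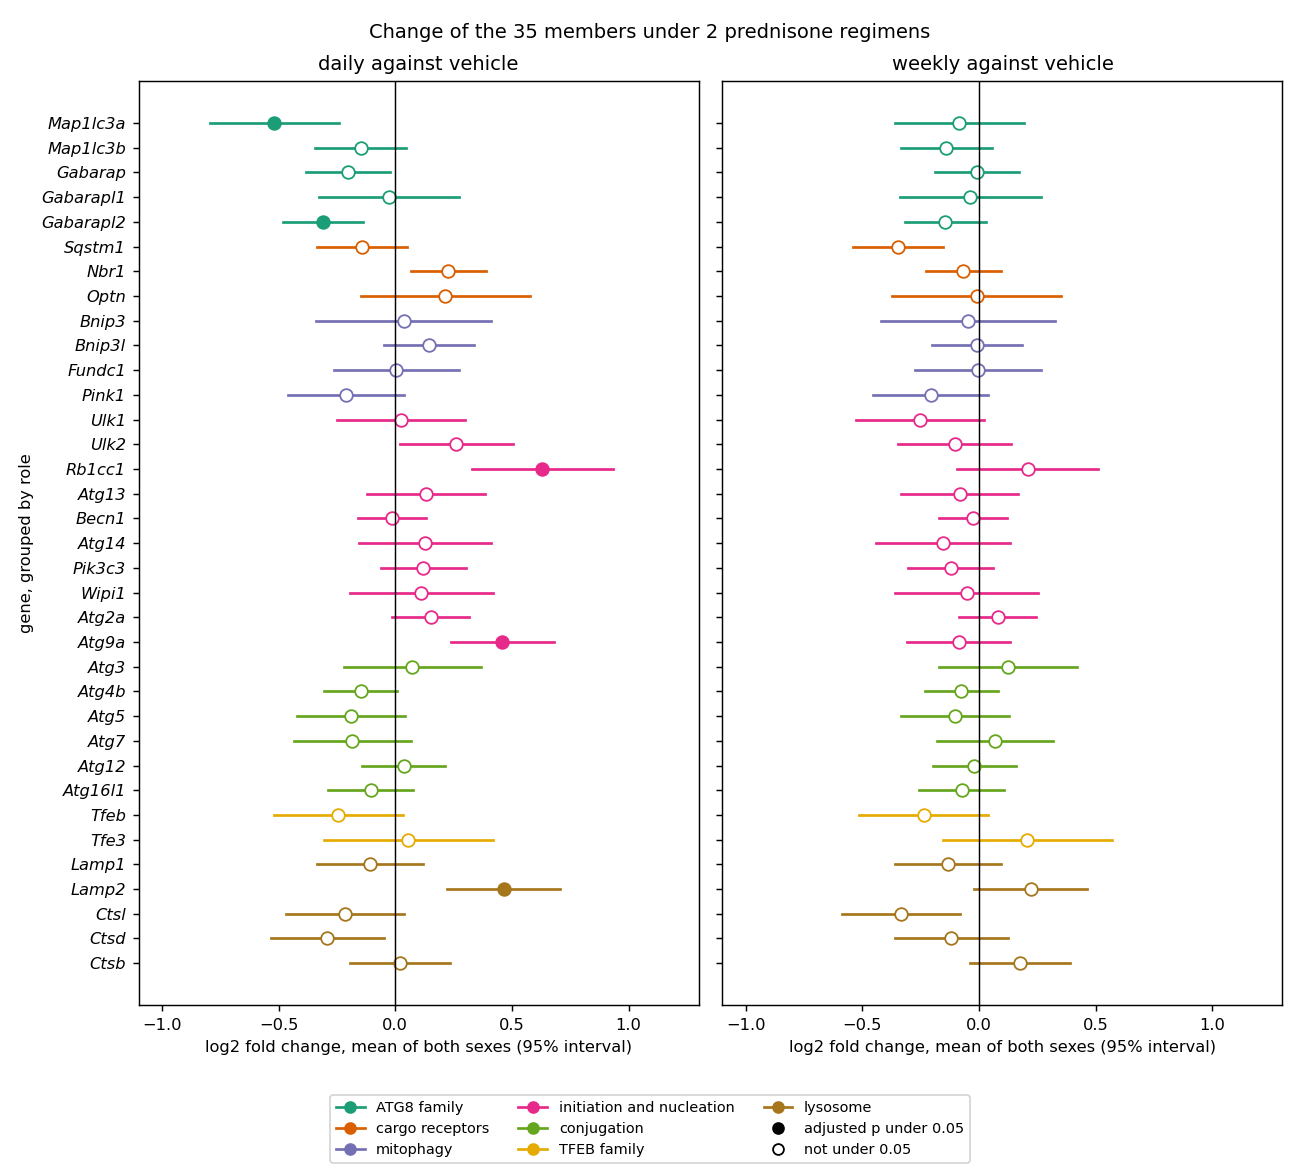
Log2 fold change of the 35 genes against vehicle under daily (left) and weekly (right) prednisone, as the mean of both sexes with its 95% interval, grouped and coloured by role. Filled circles have an adjusted p under 0.05, which holds for 5 genes under daily and for none under weekly prednisone. Both panels share the vehicle libraries.

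Daily and weekly prednisone were also compared directly. In the mean of both sexes 2 of the 35 genes passed, both higher under daily prednisone. Of all tested genes 4.30% passed as higher, and the share that passed as lower is not given here. Atg9a gave 79.7, 81.1 and 86.6 CPM in male daily against 64.3, 70.8 and 60.8 CPM in male weekly libraries. In females it gave 122, 90.7 and 90.3 CPM against 60.4, 53.8 and 65.1 CPM, a clear gap in both sexes. The log2 difference was 0.55 ± 0.10 (adjusted p = 0.00808, edgeR) and it passed in 12 of 12 leave-one-out fits. Nbr1 (chromosome 11, plus strand, 101552149 to 101581951; ENSMUSG00000017119) gave 83.7, 92.5 and 94.7 CPM in male daily against 74.9, 69.1 and 75.5 CPM in male weekly libraries. Its female values were 101, 90.0 and 88.4 CPM against 78.3, 73.5 and 76.6 CPM. These groups did not overlap either, and the log2 difference was 0.30 ± 0.08 (adjusted p = 0.0277, edgeR). Without male daily replicate 2 Nbr1 had an adjusted p of 0.0528. After removal of the length and GC trend neither gene passed, at log2 differences of 0.56 for Atg9a and 0.22 for Nbr1.

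Within one sex none of the 35 passed between daily and weekly libraries in edgeR (background 0% in both sexes). DESeq2 called 2 in females, Atg9a and Sqstm1, and its own share over all tested genes is not given here. At an unadjusted p under 0.05 there were 5 of 35 in males (background 13.5%) and 7 of 35 in females (background 17.7%). Atg9a in females came closest at 0.76 ± 0.15 (adjusted p = 0.0527). Same-numbered female weekly and daily libraries deviated together, and a replicate block for these 6 libraries was therefore added after seeing the data. The labels give no pairing of these libraries, and the column names of same-numbered libraries carry different numbers. The block is thus no known factor of the design, and its result is a description that does not support a call. With it the log2 difference was 0.75 ± 0.13 (adjusted p = 0.0207). With that block and the length and GC trend removed the adjusted p was 0.0520. Of the fits of this comparison that left out 1 library, Atg9a passed only without female weekly replicate 1, the library with high slow-fibre markers.

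Sex was compared within each treatment effect and at baseline. No sex difference of the daily or weekly response passed for the 35 genes in edgeR or DESeq2, and in edgeR none passed over all tested genes either. At an unadjusted p under 0.05 there were 0 of 35 for the daily response (background 4.69%) and 1 of 35 for the weekly response (background 2.63%), which was Atg14 at 0.58 ± 0.27 on the log2 scale. In the vehicle libraries 1 of 35 differed between the sexes (background 0.765%). Ctsl (chromosome 13, minus strand, 64363214 to 64370306; ENSMUSG00000021477) gave 202, 266 and 179 CPM in females against 118, 114 and 135 CPM in males, with no overlap. It was higher in females by 0.82 ± 0.17 on the log2 scale (adjusted p = 0.0296, edgeR), and it passed in 2 of 6 leave-one-out fits (adjusted p 0.0251 to 0.194). With the adipocyte score, the macrophage score or the length and GC trend removed, the log2 difference was 0.79 to 0.80 and the adjusted p 0.0549 to 0.0619. An antisense gene, Gm47123, shares 1742 of its exon bases, and a pseudogene on the same strand, Gm49230, shares 395.

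The wider pathway was described with 5 lists of further genes, in the mean of both sexes under daily prednisone. Over all tested genes 7.48% passed as higher and 7.47% as lower. Of 35 other autophagy genes tested, 3 passed (8.57%, below the sum of these shares): Prkaa1, a catalytic subunit of AMPK, rose by 0.38 ± 0.11 and Epg5, a tether for autophagosome fusion, by 0.35 ± 0.11 on the log2 scale, while Vamp8, a SNARE of the same step, fell by 0.39 ± 0.10. Of 20 other cargo and mitophagy receptors, 3 passed (15%, near that sum) and all rose. They were Ccpg1, a receptor for the endoplasmic reticulum, at 0.79 ± 0.15, Ncoa4, the ferritin receptor, at 0.62 ± 0.15, and Sec62, another receptor for the endoplasmic reticulum, at 0.29 ± 0.09. Ccpg1 gave 3.51, 5.0 and 3.85 CPM in male vehicle against 5.84, 6.29 and 8.71 CPM in male daily libraries, and 4.32, 3.69 and 3.67 CPM in female vehicle against 8.14, 6.29 and 6.59 CPM in female daily libraries. It was thus apart in both sexes.

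Of 39 lysosomal hydrolases, 2 passed (5.13%, against 7.48% higher and 7.47% lower over all tested genes). Acp5, the tartrate-resistant acid phosphatase of osteoclasts and macrophages, rose by 2.79 ± 0.63 on the log2 scale. It gave 1.23, 1.47 and 1.35 CPM in male vehicle, 16.1, 5.60 and 5.58 CPM in male daily, 2.71, 1.96 and 3.40 CPM in female vehicle and 9.98, 11.7 and 35.8 CPM in female daily libraries. The female weekly libraries gave 32.6, 3.25 and 56.7 CPM, and the 2 high ones are those with the highest adipocyte sums. Ids, the iduronate sulfatase, rose by 0.38 ± 0.11. The other 37 hydrolases did not pass, and the median of the list was -0.01 against 0.02 over all genes.

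Genes of lysosomal membrane and transport, a list that also holds sorting receptors, moved in both directions. Of its 27 tested genes, 11 passed, 6 higher and 5 lower, against a background of 7.48% higher and 7.47% lower. Lamtor4, Lamtor2 and Lamtor5, subunits of the Ragulator scaffold that brings mTORC1 to the lysosome, fell by 0.91 ± 0.14, 0.65 ± 0.13 and 0.54 ± 0.11 on the log2 scale, and Cd63, a tetraspanin, fell by 0.48 ± 0.09. Fnip1, a partner of folliculin, rose by 0.75 ± 0.18, the sorting receptor Sort1 by 0.49 ± 0.14, the arginine sensor Slc38a9 by 0.36 ± 0.11 and the mannose-6-phosphate receptor Igf2r by 0.35 ± 0.08. Lamtor4 gave 46.4, 39.3 and 45.0 CPM in male vehicle and 21.0, 18.9 and 19.7 CPM in male daily libraries. In females it gave 33.9, 49.0 and 32.0 CPM under vehicle and 29.7, 17.7 and 23.6 CPM under daily prednisone, so the daily libraries were below the vehicle libraries in both sexes.

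Of the 17 subunits of the V-ATPase, the proton pump that acidifies the lysosome, 8 passed (47.1%), 7 lower and 1 higher, against 7.47% lower and 7.48% higher over all tested genes. The median of the list was -0.21, with 5 above and 12 below 0, against 0.02 over all tested genes. Atp6v1f fell by 0.74 ± 0.10, Atp6v1g1 by 0.57 ± 0.11, Atp6v0b by 0.50 ± 0.10 and Atp6v0e2 by 0.48 ± 0.11 on the log2 scale, and Atp6v0a2 rose by 0.42 ± 0.11. Atp6v1f gave 44.0, 42.8 and 44.2 CPM in male vehicle against 25.5, 26.1 and 24.5 CPM in male daily libraries. In females it gave 45.1, 49.9 and 40.8 CPM against 32.6, 24.3 and 27.4 CPM, and it passed in each sex alone (adjusted p = 0.00772 in males and 0.0429 in females, edgeR). Length moved with these calls too: the 13 listed genes called lower had 884 to 4110 exon bases (median 2051) and the 14 called higher 2030 to 16704 (median 6923). After removal of the length and GC trend, 2 V-ATPase genes (Atp6v1f and Atp6v1g1) and 2 membrane genes (Lamtor4 and Cd63) still passed, and with the adipocyte score as a covariate no gene of the 5 lists did. The shares of all tested genes that passed in these fits are not given here. Under weekly prednisone none of the 5 lists had a gene that passed in edgeR. At an unadjusted p under 0.05, 5 of 17 V-ATPase genes were then lower and none higher (background 4.57% lower). The membrane list had 2 higher and 2 lower, the hydrolases 2 higher and 1 lower, the receptors 1 higher and the other autophagy genes none. Of all 13596 tested genes 870 were higher and 622 lower at that threshold.

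**Figure D5:**
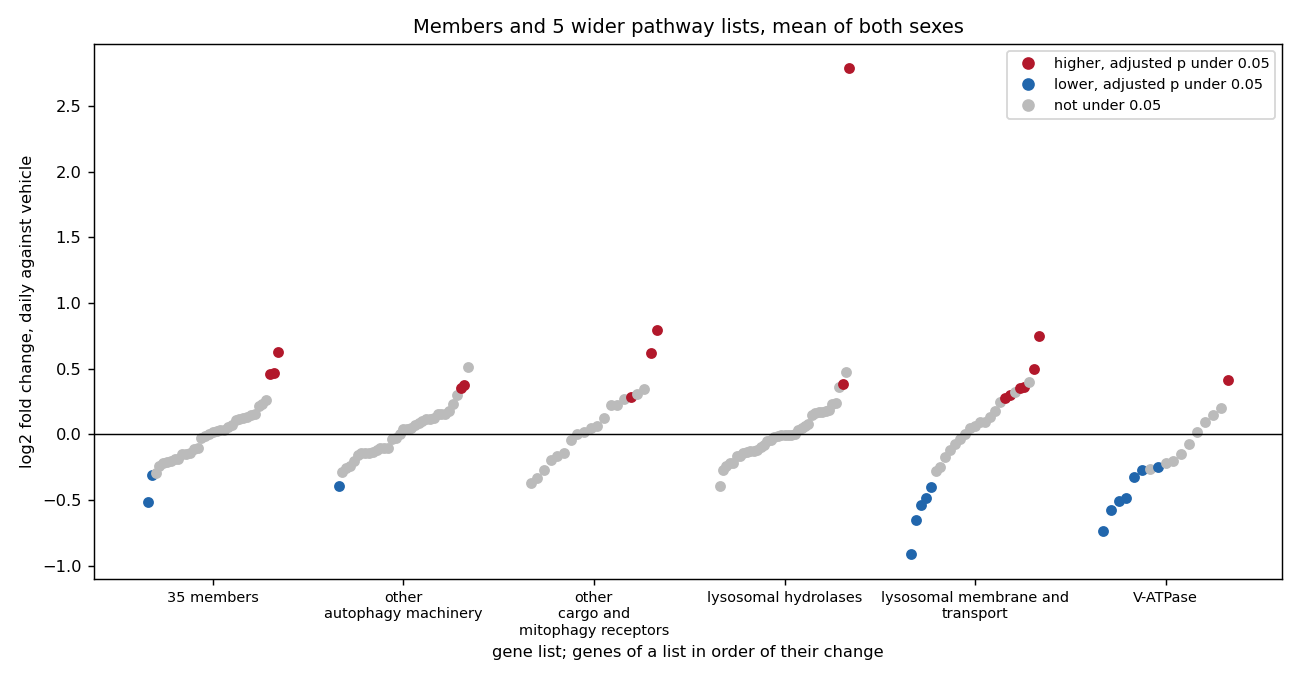
Log2 fold change under daily prednisone (mean of both sexes) of the 35 genes and of 5 wider lists, with 1 point per gene in order of its change within the list. Red and blue points passed an adjusted p of 0.05 as higher and lower. Of the V-ATPase list 7 of 17 passed as lower and 1 as higher, and of the membrane and transport list 5 and 6 of 27.

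Promoter sequence was read as a feature that the choice of genes did not use. RefSeq windows (GRCm38.p6) of 250 bases before to 50 bases after the start site were matched for 27 of the 35 genes, in 31 windows. The E-box CACGTG, the core of the motif bound by TFEB and TFE3, was found in 8 of the 27 (29.6%), in 11.7% of 10292 tested genes with a window and in 7.15% of all 32851 windows. CACGTG reads alike on both strands. The longer CLEAR motif, an E-box with set flanks, was searched only as an exact match. That match was in none of the 27 (0.787% of tested genes). Near matches were not counted, so CLEAR elements with other flanks are not excluded. The full palindromic glucocorticoid response element was also in none of the 27 (0.00972% of tested genes). AGAACA, a hexamer of the glucocorticoid response element, was searched on both strands and found in 3 of the 27 (11.1%, against 14.6% of tested genes). GTAAACA, a FoxO motif, was searched the same way and was in none (3.12% of tested genes). Start sites are those of RefSeq, and for Atg7 the only window begins at a site 27999 bases into the gene as listed in the count table, so its E-box is not at that listed start and 7 of the 8 have an E-box near theirs. A match is a description of the letters, not of binding.

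These stretches show the E-boxes of the 8 genes, of which Lamp1 has 4 and Ctsd 2, and Lamp2 as a gene that rose with the AGAACA hexamer but no E-box. Capitals mark the E-box, or in Lamp2 the hexamer as it reads from the other strand (TGTTCT). Lamp1 is shown for the last 120 bases before its start site, Ctsd and Lamp2 for 250 bases, and the other genes for the E-box with 10 bases on each side.
Lamp1, chr8:13159041-13159160, plus strand: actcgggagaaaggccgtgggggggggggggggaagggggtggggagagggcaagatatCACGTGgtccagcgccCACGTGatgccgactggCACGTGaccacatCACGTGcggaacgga
Ctsd, chr7:142387828-142388077, minus strand: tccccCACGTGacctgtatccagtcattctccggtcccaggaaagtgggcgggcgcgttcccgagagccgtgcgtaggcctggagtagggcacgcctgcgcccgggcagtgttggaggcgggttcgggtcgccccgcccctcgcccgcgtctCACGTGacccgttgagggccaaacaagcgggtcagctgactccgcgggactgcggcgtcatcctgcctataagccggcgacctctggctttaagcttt
Bnip3, chr7:138909599-138909624, minus strand: gcacgcgccgCACGTGccacacgctc
Atg14, chr14:47568420-47568445, minus strand: aacaaaatccCACGTGactggccctg
Atg3, chr16:45158725-45158750, plus strand: ctccttttgtCACGTGtcctgggaga
Atg3, chr16:45158748-45158773, plus strand: agagtcgagtCACGTGaggccttagg
Atg5, chr10:44268315-44268340, plus strand: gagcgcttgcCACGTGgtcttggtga
Atg7, chr6:114670954-114670979, plus strand: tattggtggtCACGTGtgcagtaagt
Ctsl, chr13:64370741-64370766, minus strand: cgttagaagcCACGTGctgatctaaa
Lamp2, chrX:38456461-38456710, minus strand: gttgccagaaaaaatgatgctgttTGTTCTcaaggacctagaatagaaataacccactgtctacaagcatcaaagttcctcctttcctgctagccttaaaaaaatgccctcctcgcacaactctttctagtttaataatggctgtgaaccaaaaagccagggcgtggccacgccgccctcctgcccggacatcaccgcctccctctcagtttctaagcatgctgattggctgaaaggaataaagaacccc

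In Lamp1 the 4 E-boxes began at positions -61, -45, -28 and -15 from the start site (position 0), and in Ctsd at -245 and -98. Under daily prednisone none of the 8 genes with an E-box passed in edgeR, and DESeq2 called 1, Ctsd, as lower. Their log2 fold changes ran from -0.29 to 0.13, with a median of -0.15, 3 above and 5 below 0. The 19 genes with a window but no E-box had a median of 0.03, and 3 of them passed (Gabarapl2, Atg9a and Lamp2). Over all tested genes 7.48% passed as higher and 7.47% as lower in edgeR. These counts therefore do not set genes with and without an E-box apart, and the difference between the medians was not tested. Under weekly prednisone the medians were -0.11 and -0.08. No window was matched for Map1lc3a and Rb1cc1.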

How the data were processed

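Per the labels, polyadenylated RNA of isolated quadriceps myofibers was sequenced from 18 mice in 6 groups of 3, by sex and treatment. The authors aligned the reads to mm10 and deposited raw counts per gene, with no normalization. The submitters' processing notes name TopHat2 2.1.0, Bowtie2 2.2.6 and HTSeq, and also list mm9. The strand setting and the annotation release are not given in the sources used here.

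The 35 genes, the wider lists and the tests were chosen with earlier results of these data known. Symbols and exon lengths came from GENCODE mouse release M21 (42462 of 43430 identifiers matched). In R 4.3.3, the glmQLFit function of edgeR 4.0.16 (robust = TRUE) took TMM factors and 1 mean for each of the 6 groups, over the genes that filterByExpr retained (min.count 10). Mean contrasts weigh the sexes equally. Each contrast was tested with glmQLFTest, Benjamini-Hochberg adjustment ran over 13596 genes, and an adjusted p under 0.05 passed. The SE is the absolute log2 fold change over the square root of F. All 35 genes could be named. Values per library are given for those that passed in any contrast, or were among the 3 smallest p-values of a sex against vehicle. Of the wider lists, at most 4 genes that passed under daily prednisone are named per list and direction.

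Library totals were 10506661 to 14686654, and the biological coefficient of variation was 0.224. No pair of replicates agreed within counting noise. Replicate numbers come from the sample titles, and what they mark is not stated. Of 15 pairs of groups, only female weekly and female daily libraries had a correlation over 0.1 for every number (0.501, 0.483 and 0.439), so the block is given beside that comparison. The alternatives included the Wald test of DESeq2 1.42.0, its size factors within edgeR, limma-voom (limma 3.58.1), other filters (none, and at least 1 CPM), the compared groups alone, a replicate block, adipocyte or macrophage score as covariate, mitochondrially encoded genes left out, length and GC trend removed (splines of 5 degrees of freedom) and each library left out. The scripts were tested on simulated data.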

Additional observations from a re-analysis of the deposited data

How the results depend on the processing

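With the adipocyte score as a covariate, 0 of the 35 genes passed in daily males, in the daily mean of both sexes and between the sexes under vehicle (Ctsl kept its size), and 0 genes of each of the 5 wider lists passed. With the length and GC trend removed, 0 passed in the same 3 comparisons and in the mean of daily against weekly, and the lists had 0 (other autophagy genes), 1 (receptors, Ccpg1), 1 (hydrolases, Acp5), 2 (membrane and transport) and 2 (V-ATPase). With the macrophage score, 0 passed in daily males, between the sexes and among other autophagy genes, and 7 membrane genes passed. DESeq2 called 4 in daily males, 1 in weekly females and 1 in the weekly mean (Sqstm1), 2 in daily against weekly females (Sqstm1 and Atg9a), 4 in the daily against weekly mean and 4 hydrolases. With no filter on low counts there were 1 in daily males (Lamp2), 1 in daily against weekly females (Atg9a), 1 in the mean of daily against weekly and 5 V-ATPase genes. The stricter filter gave 1 in daily against weekly females, leaving mitochondrially encoded genes out gave 1 in daily males, the compared groups alone gave 1 in the daily against weekly mean and 5 receptors, and limma-voom gave 1 hydrolase. The share of all tested genes that passed in each of these other fits is not given, here or above. The counts therefore do not show a shift particular to the listed genes, and the same holds for the leave-one-out counts below. The cause of these shifts was not tested.

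Leaving out each library gave 0 to 0 in daily males, 0 to 1 in daily against weekly females (1 without female weekly replicate 1), 1 to 4 in the daily against weekly mean (1 without male daily replicate 2, 4 without female weekly replicate 2) and 0 to 1 between the sexes (0 without male vehicle replicates 1 or 2 or female vehicle replicates 1 or 2). The lists ranged over 1 to 4 other autophagy genes, 2 to 5 receptors, 1 to 5 hydrolases, 6 to 10 membrane genes and 5 to 8 V-ATPase genes. The recomputed list counts were added after seeing the data. Of the leave-one-out counts 140 stayed within 1.5 times or stayed at 0, 4 rose and 18 fell beyond it. Of the other counts these numbers were 152, 10 and 27. In most comparisons of the main gene list no gene passed with all libraries, so most fits there only repeated a count of 0. These totals therefore do not measure how stable the calls were, and in daily males the count fell to 0 in every leave-one-out fit. A count has no direction, so these counts could not show a reversal. The sign was followed for genes of the main list that passed, or had the smallest p-values of a sex against vehicle. In those contrasts their log2 fold changes kept their sign in all these fits. Other genes changed sign in the mean of daily against vehicle. Becn1 was then above 0 with no filter on low counts. Fundc1 was below 0 with DESeq2, and Ulk1 with the length and GC trend removed.

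With the replicate number as a block over all groups, 5 genes passed in the daily mean, 2 in daily males and 3 in the daily against weekly mean (Map1lc3a added), so no count moved by over 1.5 times. The block in the daily and weekly females alone, picked after seeing the data and not given by the labels, gave 1 (Atg9a).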
